A study of Mus musculus with 6 samples.

Results

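The 10 genes described here are glucocorticoid-induced genes grouped with Plin4, namely Plin4, Fkbp5, Sgk1, Tsc22d3, Zbtb16, Sult1a1, Errfi1, Ddit4, Nfkbia and Pdk4. They were taken by name from the 38355 genes listed for each sample of mouse neocortex, and all 10 were among the 17120 genes with enough reads to be tested. The list was selected on these samples, with the measured fold changes between the ages, above all that of Plin4, already known, so the difference of each member between the ages is given below as a description, without a p-value. RNA sequencing was performed on cortical hemispheres of wild type C57BL/6 mice without transgene or treatment, held under a 12 h light/dark cycle and anaesthetised with chloral hydrate before the brain was removed. There were 2 groups, of 6 months and of 16 months, each of 3 brains. The ages are those of the sample titles and age labels, whereas a note on housing gives 3 months for the younger mice. The study asked which transcripts differ between young adult and aging cortex, and hemispheres hold all cortical cell types, vessels and blood together.

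Glucocorticoids are steroid hormones of the adrenal gland, corticosterone being the main one in mice, and their release follows the time of day and stress. In the cell they bind the glucocorticoid receptor, encoded by Nr3c1, and at low hormone levels the mineralocorticoid receptor, encoded by Nr3c2. The receptor is held in the cytoplasm by HSP90 and co-chaperones, moves to the nucleus once it has bound hormone, and as a dimer recognises an inverted repeat of the hexamer AGAACA with a spacer of 3 bases. Genes induced in this way code for proteins that feed back on the receptor, restrain growth and inflammatory signalling, and shift cells toward the use of fat. In brain, glia, endothelial cells and neurons all carry the receptor and each expresses part of this set.

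Near the starts of the 10 genes, the full motif was found at Sgk1, which encodes the serum and glucocorticoid regulated kinase. RefSeq windows on GRCm38.p6 from 250 bases before to 50 bases after an annotated start were found for 9 of the 10 genes, Zbtb16 having none, and since several genes have more than 1 start these made 17 windows. The full inverted repeat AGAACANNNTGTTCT, which reads the same on both strands, stood in 3 of 32851 windows of all genes (0.00913%), and 1 of the 3 belonged to Sgk1. It lay at chr10:21993701-21993715 on the plus strand, 189 bases before 1 of the starts of Sgk1. The other windows with the full repeat belonged to Acnat2 at chr4:49408239-49408253, on the minus strand, and to Gm35041 at chr12:76972805-76972819, on the plus strand. The 3 stretches are shown with both copies of the hexamer in capitals and 10 bases on each side.
Sgk1: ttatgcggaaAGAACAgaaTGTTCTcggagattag
Acnat2: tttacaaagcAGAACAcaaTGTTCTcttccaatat
Gm35041: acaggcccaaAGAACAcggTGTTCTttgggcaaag
Acnat2 was not detectable at this depth, with 2 reads in 1 library and 0 in the others, and Gm35041 was not among the listed gene names. The 250 bases before that start of Sgk1, chr10:21993640-21993889 on the plus strand, lie within an intron of the longer Sgk1 transcripts. They hold 3 copies of the hexamer AGAACA, read on either strand and shown in capitals, of which 2 form the repeat.
Sgk1 upstream: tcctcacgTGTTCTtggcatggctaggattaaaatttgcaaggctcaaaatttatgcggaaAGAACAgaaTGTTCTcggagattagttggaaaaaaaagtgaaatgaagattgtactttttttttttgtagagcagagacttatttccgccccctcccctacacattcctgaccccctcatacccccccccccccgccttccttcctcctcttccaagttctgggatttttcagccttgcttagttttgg
The hexamer alone, counted on both strands and including those inside the repeat, was common. It stood in 6233 of all windows (19.0%) and in 5 of the 17 windows of the members (29.4%), which belonged to Sgk1, Tsc22d3 and Sult1a1. In Tsc22d3 it lay at chrX:140600702-140600707, on the minus strand, and in Sult1a1 at chr7:126676625-126676630 and chr7:126676447-126676452, also on the minus strand.
Tsc22d3: gcattcgacaTGTTCTaagttctgag
Sult1a1 far: aaagtcccatTGTTCTaccttaagtt
Sult1a1 near: ttgtttctggAGAACAgccagtccta
The shorter core GNACANNNTGTNC stood in 156 of all windows (0.475%), among the members in that of Sgk1, and among 24 windows of further glucocorticoid-induced genes in 3, those of Map3k6, Mt1 and Txnip (12.5%). The same 24 windows held the hexamer in 1, that of Bcl6 (4.17%), and the full repeat in 0. A match of letters is a description and not a binding site, and no match says only that these letters are not in a window. The full repeat was therefore rare near starts, and the windows of Plin4, Fkbp5, Errfi1, Ddit4, Nfkbia and Pdk4 held neither the repeat nor the hexamer.

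Between 29797253 and 46519280 reads were assigned to genes per library, so that 3 reads, taken as the limit of what a count of 0 allows, correspond to 0.064 to 0.1 CPM. Levels are given as CPM, the reads of a gene for every 1000000 reads of the scaled library, and the log2 fold change is that of 16 over 6 months with its standard error. A gene is called here when edgeR's quasi-likelihood test, adjusted by the Benjamini-Hochberg method over the 17120 genes, gave a value below 0.05. This held for 286 genes (1.67%), with 134 higher and 152 lower in the older cortex. An unadjusted p below 0.05 in the same test was found for 2987 of the 17120 genes. This edgeR fit, with which the alternatives are compared, is called the main fit. The libraries of the older mice stood apart from each other. The deviation of a gene from its group mean correlated with the GC content of the gene at r = 0.588 in 16 months replicate 1 and at −0.582 in replicate 2, and between −0.130 and 0.160 in the other 4 libraries, as a description across genes that share a library. Leaving out replicate 1 of the older mice gave 995 called genes, leaving out their replicate 2 gave 2211, and leaving out any 1 of the other 4 libraries gave 48 to 58. Counts of members are therefore given with and without each library. The 3 samples of an age are labelled as separate samples and described as separate brains, and no pair of libraries was alike within counting noise.

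All 10 members had a higher mean level at 16 than at 6 months, and in 9 of 10 every older sample lay above every younger sample. Among all genes tested, 50.3% had a positive fold change and 12.2% had all older samples above all younger ones. Plin4, Fkbp5, Tsc22d3 and Sgk1 were called higher, that is 4 of 10 members, where 0.783% of all genes tested were called higher, and no member was called lower. Since the same contrast was used to draw up the list, nothing is read from these shares. The log2 fold changes ran from 0.10 for Pdk4 to 1.11 for Plin4 with a median of 0.24, and the median of all genes tested was 0.0014. In bulk cortex, more cells that express a gene and more RNA per cell cannot be told apart.

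**Figure D1:**
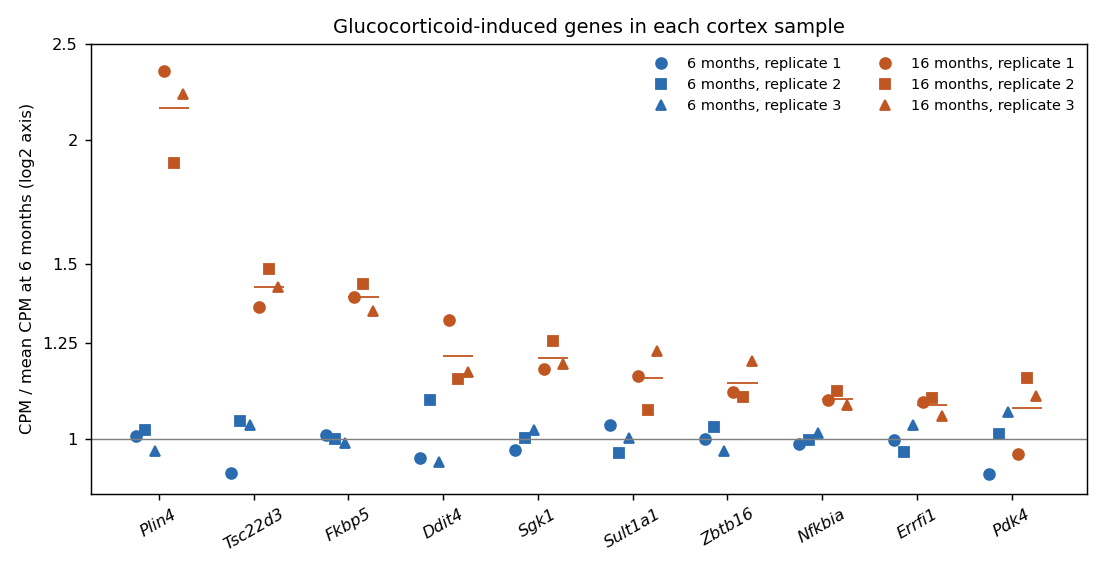
CPM of each of the 10 genes in each sample divided by the gene's mean CPM at 6 months, on a log2 axis, with 6 months in blue and 16 months in orange, 1 symbol per replicate and a short line at the mean of the older samples. Plin4 stood near 2 times its younger mean in all 3 older samples, and Pdk4 was the gene in which the ages overlapped.

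Plin4 encodes perilipin 4, a coat protein of lipid droplets that is known to respond to corticosteroids in rodent brain. The gene (ENSMUSG00000002831) lies on the minus strand at chr17:56100591-56109803 in GRCm38. It was covered by 264, 171 and 228 reads in the 6 months old samples and by 435, 332 and 425 reads in the 16 months old samples, although each older library was smaller than replicates 1 and 3 of the younger ones. In CPM the younger samples stood at 5.63, 5.70 and 5.44 and the older samples at 13.1, 10.6 and 12.4. The lowest older sample was thus well above the highest younger sample, and the older samples were also more widely spread. The means were 5.59 ± 0.138 and 12.1 ± 1.31 CPM (SD, n = 3 per age), with a log2 fold change of 1.11 ± 0.09 or 2.16-fold. It was called under each of the 13 alternative settings, with log2 fold changes between 1.05 and 1.19. Its last exon bases overlap those of Hdgfl2 on the opposite strand over 0.294% of the exon length, and Hdgfl2 itself, at 61.7 and 62.97 CPM, was not called (log2 fold change 0.03).

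Fkbp5 encodes FKBP51, a co-chaperone that lowers the affinity of the receptor for hormone and so closes a feedback loop. The gene (ENSMUSG00000024222) lies on the minus strand of the same chromosome as Plin4, at chr17:28399094-28517527. Reads numbered 1793, 1139 and 1577 in the younger and 1747, 1702 and 1744 in the older samples. In CPM these were 38.3, 38.0 and 37.6 at 6 months and 52.7, 54.3 and 51.1 at 16 months. The younger samples were nearly alike, and the gap between the ages was wider than the range within either. The means were 37.9 ± 0.329 and 52.7 ± 1.62 CPM, with a log2 fold change of 0.47 ± 0.05. Fkbp5 was also called under all 13 alternatives, with values from 0.45 to 0.50.

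Tsc22d3 encodes GILZ, a leucine zipper protein that binds and restrains NF-kB and AP-1. The gene (ENSMUSG00000031431) lies on the minus strand at chrX:140539528-140600659. Its levels were 93.5, 106 and 105 CPM at 6 months, from 4383, 3168 and 4394 reads. At 16 months they were 138, 150 and 144 CPM, from 4563, 4710 and 4917 reads. Replicate 1 was the lowest sample at both ages, and the ages did not overlap. The means of 101 ± 6.75 and 144 ± 6.30 CPM gave a log2 fold change of 0.51 ± 0.06, called under all 13 alternatives. Zbtb16 encodes PLZF, a zinc finger repressor of transcription, and lies on the minus strand at chr9:48654297-48836222 (ENSMUSG00000066687). It stood at 74.4, 76.6 and 72.4 CPM in the younger and at 83.1, 82.2 and 89.2 CPM in the older samples, from 2298 to 3488 and from 2576 to 3045 reads. The ages were apart, though by less than for Tsc22d3, and the log2 fold change of 0.19 ± 0.05 was not called. It was called without replicate 1 of 16 months (0.20), without replicate 2 of 16 months (0.21) and with GC and length offsets, both without (0.17) and with the replicate block.

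Sgk1, whose upstream repeat is shown above, encodes a kinase of the AKT family that regulates ion channels and transporters. The gene (ENSMUSG00000019970) lies on the plus strand at chr10:21882184-21999903. In 4904, 3221 and 4593 reads at 6 months its level was 104.6, 107.4 and 109.5 CPM, and in 4182, 4219 and 4355 reads at 16 months it was 126.2, 134.6 and 127.5 CPM. The 3 older samples were again all above the 3 younger ones. Means were 107 ± 2.44 and 129 ± 4.53 CPM and the log2 fold change was 0.27 ± 0.05. The call for Sgk1 was lost when any 1 of the younger samples or replicate 3 of 16 months was left out, with log2 fold changes of 0.25, 0.27, 0.29 and 0.28 in these 4 fits.

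The next 3 genes encode inhibitors of signalling. Ddit4 encodes REDD1, which inhibits mTORC1, and lies on the minus strand at chr10:59949669-59951834 (ENSMUSG00000020108). At 6 months it stood at 40.5, 46.4 and 40.2 CPM, from 1899, 1391 and 1686 reads, and at 16 months at 55.8, 48.7 and 49.5 CPM, from 1849, 1525 and 1689 reads. Replicate 2 of the younger and replicate 1 of the older samples were the high ones, and the gap between the ages was narrow. With means of 42.4 ± 3.48 and 51.3 ± 3.91 CPM the log2 fold change was 0.28 ± 0.08, close to that of Sgk1 but with a larger standard error, and it was not called. It was called under 6 of the 13 alternatives, with values from 0.28 to 0.32. Nfkbia encodes IkB-alpha, the cytoplasmic inhibitor of NF-kB, and lies on the minus strand at chr12:55489410-55492647 (ENSMUSG00000021025). It stood at 17.3, 17.5 and 17.8 CPM in the younger samples and at 19.2, 19.6 and 19.0 CPM in the older samples, from 525 to 813 and from 614 to 648 reads. The difference was small, with a log2 fold change of 0.13 ± 0.06, and the samples of each age were close together. Errfi1 encodes MIG6, an inhibitor of the EGF receptor, and lies on the plus strand at chr4:150853919-150868892 (ENSMUSG00000028967). Its 34.7, 33.8 and 36.0 CPM at 6 months and 37.9, 38.3 and 36.8 CPM at 16 months, from 1013 to 1628 and from 1200 to 1257 reads, gave a log2 fold change of 0.11 ± 0.05. The lowest older and the highest younger sample of Errfi1 differed by little, and neither Nfkbia nor Errfi1 was called.

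The last pair encode metabolic enzymes. Pdk4 encodes pyruvate dehydrogenase kinase 4, which turns cells from glucose to fatty acid oxidation, and lies on the minus strand at chr6:5483351-5496309 (ENSMUSG00000019577). It stood at 21.3, 23.4 and 24.6 CPM at 6 months and at 22.3, 26.6 and 25.6 CPM at 16 months, from 702 to 1033 and from 740 to 873 reads. Replicate 1 was the lowest sample at both ages, and the older replicate 1 lay below 2 younger samples, so that the ages overlapped. The log2 fold change was 0.10 ± 0.08, not called, and moved between 0.05 and 0.18 with the sample left out. Sult1a1 encodes a sulfotransferase of phenols and catechols, and lies on the minus strand at chr7:126672865-126676432 (ENSMUSG00000030711). Its levels were 10.5, 9.83 and 10.2 CPM in the younger and 11.8, 10.9 and 12.5 CPM in the older samples, from 492, 295 and 427 and from 390, 341 and 426 reads. The ages were apart by a small gap, and the log2 fold change of 0.20 ± 0.08 was not called. The exons of Sult1a1 overlap over 4.05% of their length with those of Sgf29 on the opposite strand, which stood at 9.17 and 8.70 CPM and was not called (log2 fold change −0.08). No member has a near-identical copy among the annotated transcripts.

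**Figure D2:**
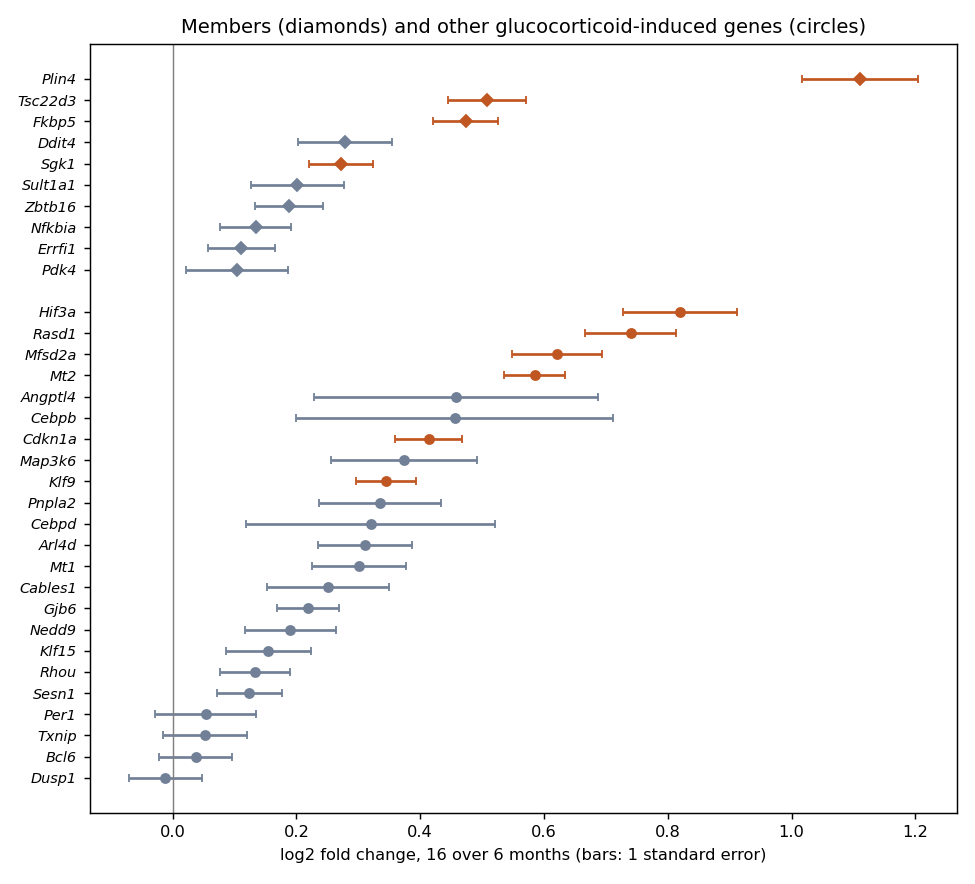
Log2 fold change of 16 over 6 months with bars of 1 standard error for the 10 members (diamonds) and for the 23 tested genes of a further list of glucocorticoid-induced genes (circles), with called genes in orange. Plin4 has the highest value at 1.11, Hif3a leads the further list at 0.82, and Dusp1 is the one gene below 0, at −0.01.

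The order of the levels was compared per kilobase of exon, as CPM per kb. At 6 months Ddit4 (24.1 ± 1.98), Tsc22d3 (23.3 ± 1.56) and Sgk1 (21.9 ± 0.499) were the highest, and neighbours among these overlapped. Zbtb16 followed at 14.1 ± 0.396, Nfkbia at 10.9 ± 0.131 and Errfi1 at 9.73 ± 0.315. Sult1a1 and Pdk4, at 6.75 ± 0.220 and 6.59 ± 0.474, overlapped, and Fkbp5 (4.01 ± 0.0348) and Plin4 (0.968 ± 0.0238) were the lowest. At 16 months Tsc22d3 stood first, at 33.2 ± 1.45, overlapping with Ddit4 at 29.2 ± 2.23, and Sgk1 came next at 26.4 ± 0.924. The remaining order was the same, with Fkbp5 at 5.57 ± 0.171 and Plin4 at 2.09 ± 0.227. Thus Plin4, the member with the largest fold difference, had the lowest level at both ages. Tsc22d3, Ddit4 and Sgk1, the most abundant, differed by less than Plin4. Their fold changes were larger than those of Zbtb16, Nfkbia, Errfi1, Sult1a1 and Pdk4. The spread within an age, as SD of log2 CPM, was larger at 16 than at 6 months for 7 of 10 members (medians 0.044 and 0.063), the exceptions being Tsc22d3, Errfi1 and Ddit4. Over all genes tested it was larger at 16 months for 12925 of 17120 (medians 0.063 and 0.13). Replicate 2 of 16 months was the highest older sample for 6 of the 10 members and the lowest for the other 4, Plin4 among the latter.

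A further list of 24 genes known to be raised by corticosteroids, also assembled with earlier results known, gave values beyond the 10 members. Of its 23 tested genes, 6 were called higher and none lower, where 0.783% and 0.888% of all genes tested were called in these directions. As with the members, nothing is read from these shares, and the p-values below are of genes listed with earlier results known. Without replicate 1 of 16 months 9 of these genes were called, and without replicate 2 of 16 months 14. Leaving out replicate 3 of 16 months gave 5, and leaving out any 1 of the younger samples gave 4. Among all genes tested, 511 of 17376, 1099 of 17377 and 29 of 17296 were called higher without replicates 1, 2 and 3 of 16 months. Without 1 of the younger samples 25 to 28 genes were called higher. Of the 23 genes, 22 fold changes were positive, and the median was 0.31 on the log2 scale. In 16 genes all older samples were above all younger ones. The shares of all genes tested were 50.3% with a positive fold change and 12.2% with all older samples above. Hif3a, a subunit of the hypoxia-inducible factors, rose from 8.83, 9.63 and 8.53 CPM to 16.3, 13.9 and 17.25 CPM, a log2 fold change of 0.82 ± 0.09 (edgeR's quasi-likelihood test, adjusted p = 0.0025). Rasd1, a small GTPase first found as a dexamethasone-induced transcript, rose from 8.17, 7.73 and 7.77 CPM to 13.3, 12.4 and 13.9 CPM (0.74 ± 0.07, edgeR adjusted p = 0.00156). The lowest older sample of each gene stood clearly above its highest younger one. Mfsd2a, which carries lysophospholipids across the blood-brain barrier, rose from 16.0, 14.3 and 15.6 CPM to 25.3, 22.3 and 23.2 CPM (0.62 ± 0.07, edgeR adjusted p = 0.0033). Mt2, a metal-binding metallothionein, rose from 78.7, 78.3 and 76.6 CPM to 114, 119 and 118 CPM (0.59 ± 0.05, edgeR adjusted p = 0.000607), with the limit that 41.5% of its transcript has a near-identical copy in Gm45774. Hif3a, Rasd1, Mfsd2a and Mt2 remained called under all 13 alternatives.

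Klf9, a transcription factor of the Krüppel-like family, and Cdkn1a, which encodes the cell cycle inhibitor p21, were the other called genes of this list. Klf9 rose from 174 ± 3.21 to 221 ± 4.85 CPM (log2 fold change 0.34 ± 0.05, edgeR adjusted p = 0.00939) and Cdkn1a from 27.1 ± 0.479 to 36.2 ± 0.808 CPM (0.41 ± 0.05, edgeR adjusted p = 0.00584). Cdkn1a lost its call when any younger sample was left out (edgeR adjusted p = 0.0611, 0.0648 and 0.0636, range over all alternatives 7.0e-06 to 0.0648). Klf9 lost it when any younger sample or replicate 3 of 16 months was left out (edgeR adjusted p between 0.0709 and 0.103, range over all alternatives 4.03e-07 to 0.103). A near-identical copy of 12.6% of the Cdkn1a transcript lies in AC167363.2. Mt1, next to Mt2 on its chromosome, stood at 147 ± 5.85 and 181 ± 19.3 CPM and was not called (0.30 ± 0.08, edgeR adjusted p = 0.0838). Among genes of this list that also follow the clock or neuronal activity, Per1 (0.05 ± 0.08, edgeR adjusted p = 0.78) and Dusp1 (−0.01 ± 0.06, edgeR adjusted p = 0.941) overlapped between the ages. The summed level of the list was 966 to 977 CPM in the younger and 1140.0 to 1220.0 CPM in the older samples. Lcn2 was under the filter on low counts.

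**Figure D3:**
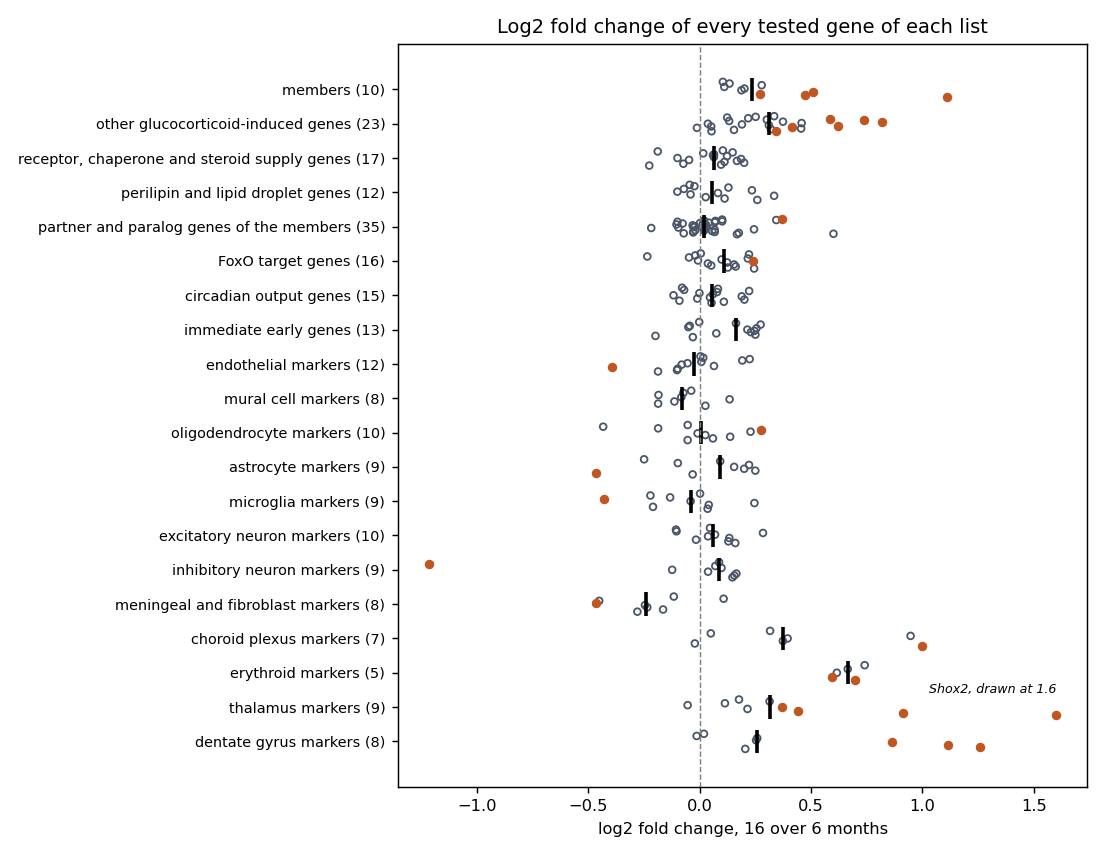
Log2 fold change of 16 over 6 months of every tested gene of the 10 members and of 19 further lists, with called genes filled in orange, a black bar at each median and the number tested in brackets. The medians of the members and of the other glucocorticoid-induced genes are 0.24 and 0.31, those of the receptor, perilipin, paralog and circadian lists lie between 0.022 and 0.065, those of the erythroid, choroid plexus, thalamus and dentate gyrus lists are 0.66, 0.37, 0.31 and 0.26, and Shox2, at 4.06, is drawn at the edge.

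No gene of the list of receptors, chaperones and steroid supply was called in the main fit among 17 tested, and 3 were called by DESeq2. An unadjusted edgeR p below 0.05 was found for 6 of the 17, beside 2987 of 17120 among all genes tested. Without replicate 2 of 16 months 3 genes were called higher and 1 lower, and with GC and length offsets 4 higher and 2 lower. These and later counts from the 2 fits stand beside 2211 of 17377 and 2682 of 17120 genes called either way. Nr3c1, the glucocorticoid receptor, stood at 191, 198 and 194 CPM in the younger and at 156, 178 and 164 CPM in the older samples. All 3 older samples were thus below the younger ones, opposite to the members, with a log2 fold change of −0.23 ± 0.06 (edgeR adjusted p = 0.0941). Over the 13 alternatives this value ran from −0.28 to −0.17 and the adjusted p from 0.000496 to 0.36, with 7 alternatives calling Nr3c1 lower. Nr3c2, the mineralocorticoid receptor, stood at 58.8 ± 1.55 and 62.9 ± 2.15 CPM (0.10 ± 0.05, edgeR adjusted p = 0.382). Hsp90ab1, which encodes the constitutive HSP90, had the smallest p of the list, with 1179 ± 3.42 and 1354 ± 8.22 CPM (0.20 ± 0.04, edgeR adjusted p = 0.0603). Stip1, which passes clients to HSP90, came next (0.19 ± 0.05, edgeR adjusted p = 0.0899). The median log2 fold change of this list was 0.065.

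The family and droplet partners of Plin4 were not called in the main fit. Of 12 tested perilipin and lipid droplet genes, 3 had an unadjusted edgeR p below 0.05 and 1, Dgat2, was called by DESeq2. Without replicate 2 of 16 months 2 of these genes were called higher, and with GC and length offsets 3, Plin2 among them. Plin2, which coats droplets in most cells, stood at 4.97, 4.80 and 5.08 CPM in the younger and 5.52, 5.71 and 6.56 CPM in the older samples (0.26 ± 0.09, edgeR adjusted p = 0.195). Plin3 stood at 19.4 ± 1.08 and 21.0 ± 1.43 CPM (0.11 ± 0.07, edgeR adjusted p = 0.469). Plin5, the neighbour of Plin4 at chr17:56111601-56117596 on the same strand, stood at 0.938 ± 0.195 and 0.974 ± 0.105 CPM (0.03 ± 0.20, edgeR adjusted p = 0.969). Its interval is wide at this level. Plin1, the perilipin of fat cells, was at or under the limit of 3 reads in every library, as was Cidec. Dgat2, an enzyme of triglyceride synthesis (0.24 ± 0.06, edgeR adjusted p = 0.0828), and Pnpla2, the lipase that opens droplets (0.33 ± 0.10, edgeR adjusted p = 0.127), had the smallest p-values.

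Among 35 tested paralogs, substrates and targets of the members, 1 gene was called higher and none lower, with a median log2 fold change of 0.022. It was Zbtb20, a zinc finger repressor related to Zbtb16, at 190 ± 7.07 and 246 ± 26.2 CPM (190.4 at 6 months, 0.37 ± 0.08, edgeR adjusted p = 0.0439). This call was lost when any younger sample or replicate 3 of 16 months was left out (edgeR adjusted p between 0.170 and 0.257, range over all alternatives 4.59e-05 to 0.257). No paralog of a called member was called in the main fit, but Sgk2 and Fkbp4 were called higher under some of the alternatives. Over the alternatives, by edgeR or DESeq2, the adjusted p ran from 0.0107 to 0.235 for Sgk2 and from 0.00115 to 0.486 for Fkbp4. Sgk2 stood at 1.29 ± 0.0495 and 1.96 ± 0.0824 CPM (0.60 ± 0.13, edgeR adjusted p = 0.0589) and Sgk3 at 24.1 ± 0.919 and 23.0 ± 3.62 CPM (−0.07 ± 0.10, edgeR adjusted p = 0.766). Fkbp4, whose product replaces FKBP51 on the activated receptor, stood at 111 ± 2.06 and 125 ± 5.97 CPM (0.17 ± 0.05, edgeR adjusted p = 0.156). Tsc22d1 stood at 399 ± 3.66 and 418 ± 11.6 CPM (0.07 ± 0.05, edgeR adjusted p = 0.506). The kinases Pdk1, Pdk2 and Pdk3, which act on the same enzyme as Pdk4, had log2 fold changes of −0.10, 0.10 and 0.07 with edgeR adjusted p of 0.397, 0.563 and 0.584, and overlapped between the ages.

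Other programmes were described in the same way, and their lists hold none of the members. Txnip, Klf15, Bcl6 and Sesn1 of the further glucocorticoid-induced genes are also on the FoxO list. Per1 of that further list is also on the circadian list, and Pnpla2 on that of lipid droplets. Among 16 tested FoxO target genes, a group with which Pdk4 and Ddit4 are often listed, Sesn3 alone was called (56.3 ± 1.09 and 66.4 ± 1.35 CPM, 0.24 ± 0.05, edgeR adjusted p = 0.0479), and this call too was lost when any younger sample or replicate 3 of 16 months was left out (edgeR adjusted p between 0.218 and 0.248, range over all alternatives 0.000286 to 0.248). Circadian output genes were included because corticosterone follows a daily rhythm and the hour of sampling is not given in the sources used here. None of 15 was called in the main fit or by DESeq2, 1 had an unadjusted edgeR p below 0.05, and the median was 0.054. The genes with the smallest p were Npas2 (0.22, edgeR adjusted p = 0.132) and Nr1d1 (0.19, edgeR adjusted p = 0.304). Without replicate 2 of 16 months 4 circadian genes were called higher and 1 lower, and with GC and length offsets 3 were called higher. In those fits 2211 of 17377 and 2682 of 17120 genes were called either way. None of 13 immediate early genes, which respond to neuronal activity and handling, was called in the main fit. An unadjusted edgeR p below 0.05 was found for 6 of them, and 1, Egr1, was called by DESeq2. Egr1 (0.23, edgeR adjusted p = 0.0877) and Dusp6 (0.16, edgeR adjusted p = 0.129) had the smallest p, and the median was 0.16. Without replicate 2 of 16 months 5 immediate early genes were called higher, and with GC and length offsets 6 were called higher and 1 lower.

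**Figure D4:**
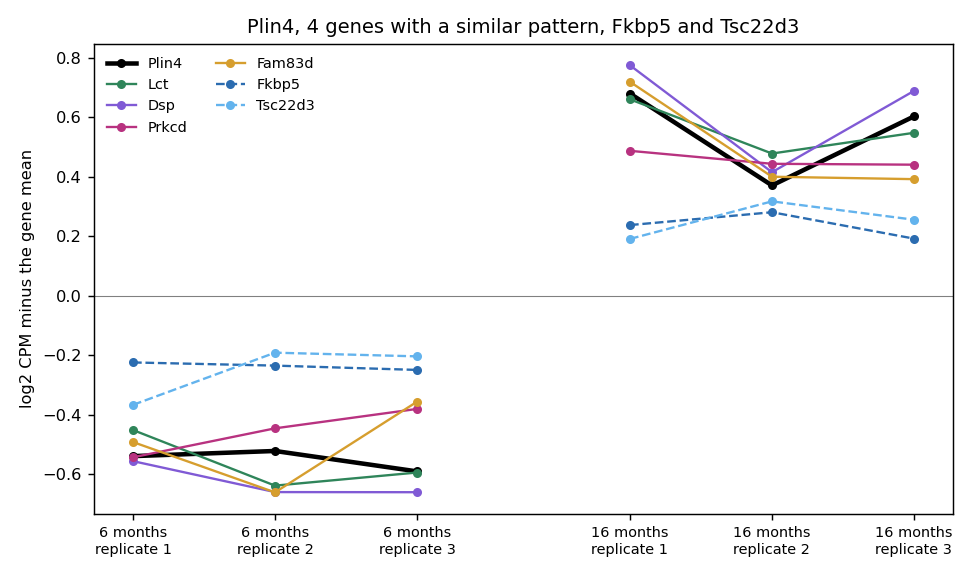
Log2 CPM minus the gene's mean over the 6 samples (y axis) in each sample (x axis) for Plin4, for Lct, Dsp, Prkcd and Fam83d, whose patterns were similar, and for Fkbp5 and Tsc22d3 (dashed), the lines joining samples of 1 age only to guide the eye. All 7 genes are below 0 in the younger and above 0 in the older samples, with Fkbp5 and Tsc22d3 nearer to 0.

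By a measure in which the size of the fold change counts, the genes closest to Plin4 over the 6 samples were not the other members. Likeness was measured over 14607 other genes with a mean of at least 1 CPM as the root mean square difference of log2 CPM centred on the gene mean. Among the closest genes were Lct, which encodes lactase (0.077), Dsp, which encodes the junction protein desmoplakin (0.082), Prkcd, which encodes protein kinase C delta (0.139), and Fam83d (0.144). Their log2 fold changes were 1.12, 1.26, 0.91 and 1.00, a size that closeness to Plin4 fixes. The same measure keeps members with a smaller fold change away from Plin4, so nothing is read from their distances. Tsc22d3 (0.327) had 63 genes closer to Plin4 than itself and Fkbp5 (0.331) had 66. Ddit4 had 312, Sgk1 405, Sult1a1 716, Zbtb16 927, Nfkbia 2008, Errfi1 2680 and Pdk4 4355. Lct and Dsp are on the list of dentate gyrus markers used here and Prkcd is on that of thalamus markers, regions that adjoin a cortical hemisphere.

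Markers of adjoining tissue and of blood moved with the members. The median log2 fold change was 0.26 for dentate gyrus, 0.31 for thalamus, 0.37 for choroid plexus and 0.66 for erythroid markers, each above the 0.24 of the members. Of 8 dentate gyrus markers, 3 were called higher (Lct, Dsp and C1ql2) and 5 had all older samples above the younger ones. Among all genes tested 0.783% were called higher and 12.2% had all older samples above. The summed level of the dentate gyrus markers was 211 to 218 CPM at 6 months and 232 to 250 CPM (249.7 at most) at 16 months. Of 9 thalamus markers, 4 were called higher (Shox2, Prkcd, Tcf7l2 and Calb2), with sums of 249.3 to 257 and 261 to 296 CPM. Shox2 was at 0.105 ± 0.0253 CPM at 6 months, near the limit of 3 reads, and at 1.74 ± 0.257 CPM at 16 months. Of 7 tested choroid plexus markers, Ttr was called (8.95 ± 0.573 and 17.8 ± 1.08 CPM), with sums of 17.6 to 18.9 and 26.2 to 29.4 CPM, and none of the 3 lists had a marker at or under 3 reads in every library. Ttr thus made up a large part of the choroid plexus sums at both ages. All 5 erythroid markers had every older sample above every younger one, beside 12.2% of all genes tested. Hbb-bs and Hbb-bt were called, and the sums were 27.3 to 30.8 and 44.9 to 50.3 CPM. The 5 are not all separate measures, as 55.9% of the Hbb-bt transcript has a near-identical copy in Hbb-bs. For Hba-a1 the copy in Hba-a2 covers 77% of the transcript, and for Hba-a2 that in Hba-a1 covers 97.1%. The sums of all 4 lists were thus higher in every older sample, as was that of the members (441 to 464 and 560 to 576 CPM, 559.7 at least), and their part in the result was not tested. The call of C1ql2, Tcf7l2, Calb2, Hbb-bt and Fam83d was lost when any younger sample or replicate 3 of 16 months was left out.

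Lists of other cell types were read for their sums in the same way. Of 9 astrocyte markers 1, Gfap, was called lower, with a list median of 0.093, while the sums, at 6561 to 6905 and 7016 to 7715 CPM, were higher in every older sample. Slc1a2 alone, at 4129 and 4597 CPM, made up most of these sums, and 4 of the 9 astrocyte markers had a negative fold change. Among 9 inhibitory neuron markers Pvalb was called lower, and the sums of 1109 to 1143 and 1177 to 1185 CPM were also higher in every older sample. The sums of 4 lists overlapped between the ages. Of 12 endothelial markers 1, Kdr, was called lower, with sums of 284 to 287 and 285 to 300.0 CPM, and of 10 oligodendrocyte markers 1, Cldn11, was called higher, with sums of 7101 to 7171 and 7131 to 7180.0 CPM. Of 9 microglia markers 1, Aif1, was called lower, with sums of 428 to 443 and 438 to 441 CPM. Excitatory neurons had no call among 10 markers in the main fit or by DESeq2, with 2 at an unadjusted edgeR p below 0.05. Their sums were 4780.0 to 5023 and 4973 to 5656 CPM. Without replicate 2 of 16 months 3 of these markers were called higher, and with GC and length offsets 3 were called higher and 1 lower. Mural cells had no call among 8 markers by either tool, with 1 at an unadjusted p below 0.05 and sums of 156 to 164 and 146.5 to 152.5 CPM that were lower in every older sample. Meningeal and fibroblast sums were lower too, at 572 to 597 and 502 to 556 CPM, with Igf2 called lower. The part of these lists in the result was not tested. The calls of Kdr, Cldn11 and Aif1 were lost when any younger sample or replicate 3 of 16 months was left out.

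**Figure D5:**
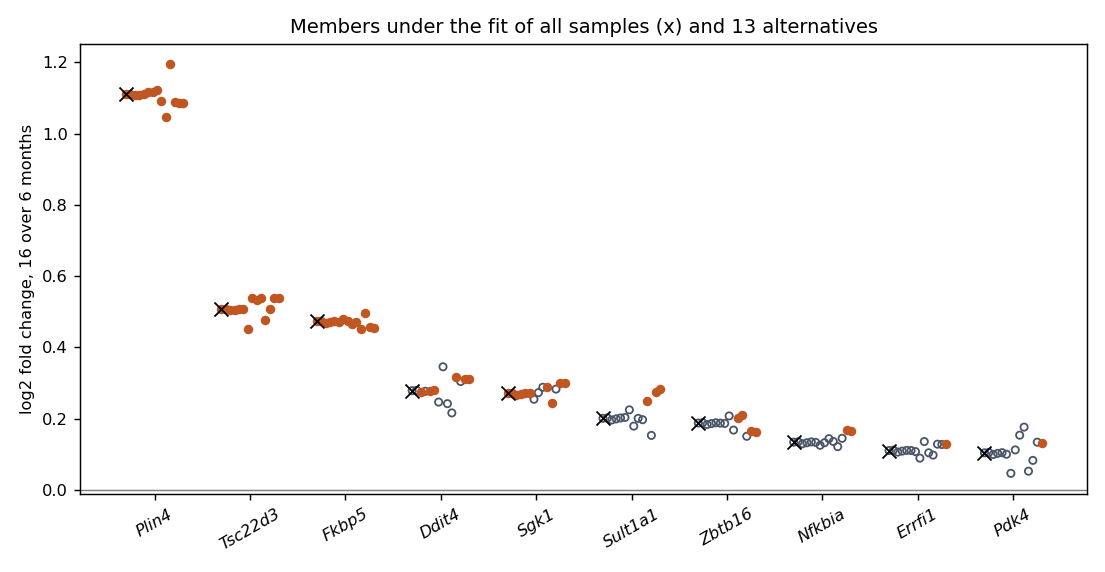
Log2 fold change of 16 over 6 months of each of the 10 members in the fit of all 6 samples (cross) and under 13 alternatives (circles), filled orange where called and open where not. Every value lies above 0, Plin4, Tsc22d3 and Fkbp5 are filled throughout, and each of the other 7 members changes between filled and open, Errfi1 and Pdk4 in 1 alternative only.

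How many members were called moved with the libraries. In 9 of 10 members every older sample lay above every younger one, so leaving out 1 library could hardly change their sign. Nothing is therefore read from their constant direction. Every member had a positive fold change in each of the 13 alternatives, with the members' lowest value, 0.05, found for Pdk4 without replicate 1 of 6 months. DESeq2 called 5 members, Ddit4 being added, where it called 1.6% of all genes tested higher. Without replicate 1 of 16 months 5 members were called, Zbtb16 being added, where 511 of 17376 genes tested were called higher. Without replicate 2 of 16 months 7 members were called, Zbtb16, Ddit4 and Sult1a1 being added, where 1099 of 17377 genes tested were called higher. Without any 1 of the other 4 libraries 3 members were called, Sgk1 being lost, where 25 to 29 of all genes tested were called higher. When the tilt with GC content and gene length was taken out by offsets, 8 members were called, all but Errfi1 and Pdk4. In that fit 10.5% of all genes tested were called higher, so the higher number of members stands beside a higher background. The offsets moved the median log2 fold change of all genes to 0.025. As the members were listed with their fold changes known, nothing is read from their lying above it.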

How the data were processed

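The members and the gene lists were chosen with earlier results of these data known. PolyA RNA from Trizol extracts was sequenced as paired ends on a HiSeq 2000. According to the study's methods, reads were trimmed with fastq-mcf, aligned with STAR and counted with HTSeq on Ensembl genes, while the submitters' processing notes name CASAVA 1.8.2, STAR 2.3.0e, featureCounts 1.5.0-p1 and mm10. The deposited values are raw counts per gene, 1 table per sample, made by the authors. The strand setting and Ensembl release are not given in the sources used here, so opposite-strand overlaps cannot be told apart. The 5 summary lines were left out, and 70.8% to 76.5% of uniquely aligned reads were assigned to genes. Names and positions come from GENCODE vM21, which matched 36602 of 38355 genes.

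Differences were tested with edgeR 4.0.16 (filterByExpr, TMM, quasi-likelihood test, age as the only term, R 4.3.3). DESeq2 1.42.0, other filters, left-out samples, replicate block and GC and length offsets were alternatives. CPM are reads for every 1000000 reads of the scaled library, and log2 CPM used a prior count of 2. Copies are transcripts of other genes matched by blastn 2.17.0 at 97% identity over 100 bases. The p-values set the difference between the ages against the spread between the samples of an age. Named were all members, called genes of each list or, with none, the 2 with the smallest p, the receptors, perilipins and paralogs, and the 5 genes most like Plin4, of which 1 is not reported here. Per1, Dusp1 and Mt1 were named after their values were seen. Scripts were tested on simulated data.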

Additional observations from a re-analysis of the deposited data

How the results depend on the processing

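All 10 members were higher at 16 months in all 13 alternatives, which is a description only for genes listed with these differences known. The 4 called members kept their call in 48 comparisons with an alternative and lost it in 4, all of Sgk1, and the other members stayed uncalled in 61 comparisons and were called in 17. The count of all genes called was 286, and 648 without a filter, 471 with DESeq2, 2682 with GC and length offsets, 3595 with offsets and the replicate block, and 48 to 2211 with 1 sample left out. With offsets 67.2% of called genes were higher at 16 months, where it was 46.9% without. Members called were 4, and 8 with offsets, 10 with offsets and block, and 3 to 7 with 1 sample left out. Related lists together had 8 genes called higher, and 15 without a filter, 16 with DESeq2, 38 with offsets, 43 with offsets and block, and 4 to 35 with 1 sample left out. They had 0 called lower, and 1 without a filter, 1 with DESeq2, 5 with offsets, 7 with offsets and block, and 0 to 3 with 1 sample left out. Of the other glucocorticoid-induced genes 6 were called, and 13 with offsets, 15 with offsets and block, and 4 to 14 with 1 sample left out. The cause of these moves was not tested.

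Samples of the 2 ages share replicate numbers, and deviations correlated at 0.180, 0.0958 and 0.0351 for the same number. Between different numbers the correlations ran from −0.133 to 0.0379, the highest for replicate 3 of 16 months with replicate 2 of 6 months. Whether samples of the same number share more than the number was not tested. The replicate block gave 783 genes called, 5 members with Ddit4 added, 20 genes of the related lists higher and 2 lower, and 10 of the other glucocorticoid-induced genes.

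Values near 0 changed sign. With 1 sample left out, Dusp1 ran from −0.0540 to 0.0135, Per1 from −0.0296 to 0.144, Plin5 from −0.0916 to 0.170, Sgk3 from −0.171 to 0.0487, Hdgfl2 from −0.00179 to 0.0794 and Sgf29 from −0.139 to 0.00468. Sgk3 was at 0.0502 with offsets and at 0.0482 with offsets and block. Depth limits Plin1 and Cidec, at or under 3 reads in every library.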
